A study of Rattus norvegicus with 6 samples.

Results

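Collagen chains were followed in RNA from the centre of a contusion injury of the rat spinal cord at the T9 segment. They were taken as the rows of the deposited gene table whose symbol has the form Col, number, a, number. The pattern found 41 genes among 33455, and 39 of them had enough counts to be tested. By class there were 11 fibrillar chains, 8 of basement membranes and their border with connective tissue, 9 of networks, 8 FACITs, 4 transmembrane chains and 1 chain of no class. The Piezo Gel+US group (n = 3) received Piezo Gel, the material of a piezoelectric implant, with ultrasound, and the Gel+US group (n = 3) received Gel with the same ultrasound. All animals were wild-type rats with the T9 contusion, and ultrasound ran at 100 Hz and 1 W/cm2 for 10 min a day, paused for 10 s every 2 min, over 4 weeks. The composition of the gels and the strain, sex and age of the rats are not given in the sources used here. No uninjured cord and no injury without ultrasound was analysed here, so every level below is a level in treated lesions.

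Collagens are built from 3 chains wound around each other, which may be alike or products of different genes. Fibrillar collagens form the fibres of connective tissue, and in the injured cord types I and III are the fibres of the fibrotic scar, laid down mainly by fibroblasts of the meninges and of vessel walls. Type IV collagen is the sheet of every basement membrane, including those around vessels, at the glial border and around each Schwann cell. Network collagens form beaded filaments or hexagonal lattices, FACITs decorate the surface of fibres, and transmembrane collagens stay anchored in the cell membrane.

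Several collagen genes lie head to head and are transcribed away from a common stretch of DNA. In the deposited table Col4a1 (plus strand, 72545321 to 72655537) and Col4a2 (minus strand, 72409913 to 72545210) were separated by 110 bases. Col4a3 (plus strand, 155450358 to 155578260) and Col4a4 (minus strand, 155331751 to 155450325) were separated by 32 bases. The table does not name its build, and its gene identifiers did not match the Norway rat reference GRCr8. Its coordinates and the windows below come from different references, and distances can differ between them. The promoter windows of these 4 genes, whose couples are compared below, are shown with that of Col1a2, a type I chain. They come from RefSeq for the Norway rat genome GRCr8, which had a window for 32 of the 41 chains, and cover 300 bases around the gene start, most of them upstream, written 5′ to 3′ on the gene's strand. The windows are chr16:84885347-84885646 (plus) for Col4a1, chr16:84885471-84885770 (minus) for Col4a2, chr9:91323740-91324039 (plus) for Col4a3, chr9:91323528-91323827 (minus) for Col4a4 and chr4:33518307-33518606 (plus) for Col1a2. Capitals mark a GC box, a CCAAT box or a TATA box on either strand.
Col4a1: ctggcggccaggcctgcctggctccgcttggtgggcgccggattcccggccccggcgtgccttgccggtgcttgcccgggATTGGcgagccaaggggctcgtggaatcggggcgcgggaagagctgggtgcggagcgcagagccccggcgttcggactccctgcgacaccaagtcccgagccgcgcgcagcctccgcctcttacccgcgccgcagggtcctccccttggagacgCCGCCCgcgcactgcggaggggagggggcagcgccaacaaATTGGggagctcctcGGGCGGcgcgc
Col4a2: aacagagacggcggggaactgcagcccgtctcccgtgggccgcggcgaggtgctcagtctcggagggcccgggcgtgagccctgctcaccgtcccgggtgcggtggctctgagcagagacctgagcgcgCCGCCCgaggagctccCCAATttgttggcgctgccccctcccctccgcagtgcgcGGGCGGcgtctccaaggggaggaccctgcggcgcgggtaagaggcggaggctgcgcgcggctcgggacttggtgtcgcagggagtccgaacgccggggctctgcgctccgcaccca
Col4a3: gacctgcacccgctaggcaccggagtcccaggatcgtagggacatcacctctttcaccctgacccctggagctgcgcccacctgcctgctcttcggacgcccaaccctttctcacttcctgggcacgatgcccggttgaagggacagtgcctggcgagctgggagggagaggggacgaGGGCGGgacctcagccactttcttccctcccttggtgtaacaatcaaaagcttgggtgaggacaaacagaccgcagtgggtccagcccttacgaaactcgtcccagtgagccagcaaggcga
Col4a4: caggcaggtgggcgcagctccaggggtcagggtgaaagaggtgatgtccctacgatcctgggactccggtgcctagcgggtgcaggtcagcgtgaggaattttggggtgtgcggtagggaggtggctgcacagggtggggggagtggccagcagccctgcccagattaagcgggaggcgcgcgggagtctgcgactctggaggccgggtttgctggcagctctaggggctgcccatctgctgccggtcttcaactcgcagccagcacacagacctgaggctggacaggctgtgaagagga
Col1a2: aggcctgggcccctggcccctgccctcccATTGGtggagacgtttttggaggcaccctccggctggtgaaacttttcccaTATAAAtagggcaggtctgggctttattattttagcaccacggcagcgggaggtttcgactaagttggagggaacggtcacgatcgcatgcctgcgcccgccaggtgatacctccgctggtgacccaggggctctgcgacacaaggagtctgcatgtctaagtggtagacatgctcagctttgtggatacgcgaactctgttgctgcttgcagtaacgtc

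The GC box was searched as GGGCGG, on both strands. The CCAAT box was searched by the letters of its name and the TATA box as TATAAA, likewise on both strands. The windows of Col4a1 and Col4a2 shared 176 bases and those of Col4a3 and Col4a4 shared 88. These 88 bases are the upstream ends of both windows. In GRCr8 the starts of Col4a3 and Col4a4 thus lie further apart than the 32 bases of the deposited table. GC boxes were found at 2 places in the window of Col4a1 and of Col4a2, at 1 in that of Col4a3 and in neither of the other windows. CCAAT boxes were found at 2 places for Col4a1, 1 for Col4a2 and 1 for Col1a2. Both GC boxes of Col4a1 and of Col4a2 are the same sites, read from opposite strands within the shared bases. The CCAAT box of Col4a2 is likewise 1 of the 2 of Col4a1. The Col1a2 window alone among the 5 held a TATA box. Of the 33469 RefSeq windows of this length, 33.1% held a GC box, 37.5% a CCAAT box and 14.2% a TATA box. Of the 32 collagen chains with a window, 18, 10 and 4 held these boxes. Each chain was counted once, by its first window, whereas the shares run over all windows. Capitals of different motifs do not overlap in these 5 windows, and a match describes the letters only.

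Libraries held 17212653 to 21436820 counts, so counting error was small beside the spread between animals for all but the lowest chains. The libraries carrying number 2 stood apart in both groups. Summed over the 41 chains, collagen reached 10944 CPM in Piezo Gel+US replicate 2, against 2727 and 2812 CPM in replicates 1 and 3 of that group. In Gel+US it reached 10545 CPM in replicate 2, against 2436 and 1519 CPM in replicates 1 and 3. CPM is the count scaled to a common library size by trimmed mean of M-values (TMM). Both libraries numbered 2 lay above the other 4 for 24 of 39 chains (61.5%), against 17.8% of all 17066 genes tested. This held for 10 of 11 fibrillar and 6 of 7 network chains, and for 3 of 8 basement membrane, 4 of 8 FACIT and 1 of 4 transmembrane chains. Gel+US replicate 3 was lowest for 31 of the 39. The biological coefficient of variation, the spread between animals beyond counting error, had a median of 0.579 over the chains and 0.313 over all genes tested. Values without the pair of libraries numbered 2 are therefore given for the chains and lists described in detail.

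Markers of other cells differed between the same libraries. In Piezo Gel+US replicate 2 the 9 Schwann cell markers summed to 74343 CPM, against 8434 and 14543 CPM in replicates 1 and 3 and 5313 to 8253 CPM in Gel+US. The 13 fibroblast markers, 10 of them above 1 CPM in every library and Tcf21 at 0 in at least 1, summed to 1889 CPM in Piezo Gel+US replicate 2 and 1410 CPM in Gel+US replicate 2. In the other 4 libraries they summed to 369 to 828 CPM. Chondrocyte markers summed to 567 and 924 CPM in these 2 libraries and to 77.0 to 117 CPM in the others. Of them 5 of 11 were above 1 CPM in every library, and Matn1, Epyc and Ucma were at 0 in at least 1. Different members led the 2 sums: Cnmd (340 CPM) in Piezo Gel+US replicate 2, and Comp (423 CPM) and Cilp (369 CPM) in Gel+US replicate 2. Acan and Hapln1 had their lowest values, 5.18 and 5.89 CPM, in Piezo Gel+US replicate 2. The 10 neuron markers ran from 2072 to 9173 CPM in Piezo Gel+US and from 2630 to 18023 CPM in Gel+US and were all above 1 CPM in every library, as were the oligodendrocyte and astrocyte markers. The 9 osteoblast markers summed to 149 CPM in Gel+US replicate 2 and to 15.9 to 46.3 CPM elsewhere. The 8 skeletal muscle markers summed to 116 CPM in Piezo Gel+US replicate 2 and to 14.5 to 29.4 CPM elsewhere. Only 3 of the osteoblast and 2 of the muscle markers were above 1 CPM in every library. Endothelial markers, with sums of 682 to 1033 CPM in Piezo Gel+US and 526 to 867 CPM in Gel+US, were spread less. Pericyte and smooth muscle markers summed to 846 to 1213 CPM in Piezo Gel+US and 829 to 1380 CPM in Gel+US. Macrophage and microglia markers summed to 214 to 861 CPM in Piezo Gel+US and 464 to 780 CPM in Gel+US. The part of these cells in the results below was not tested, and in bulk tissue more cells of a type and more RNA per cell cannot be told apart.

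**Figure D1:**
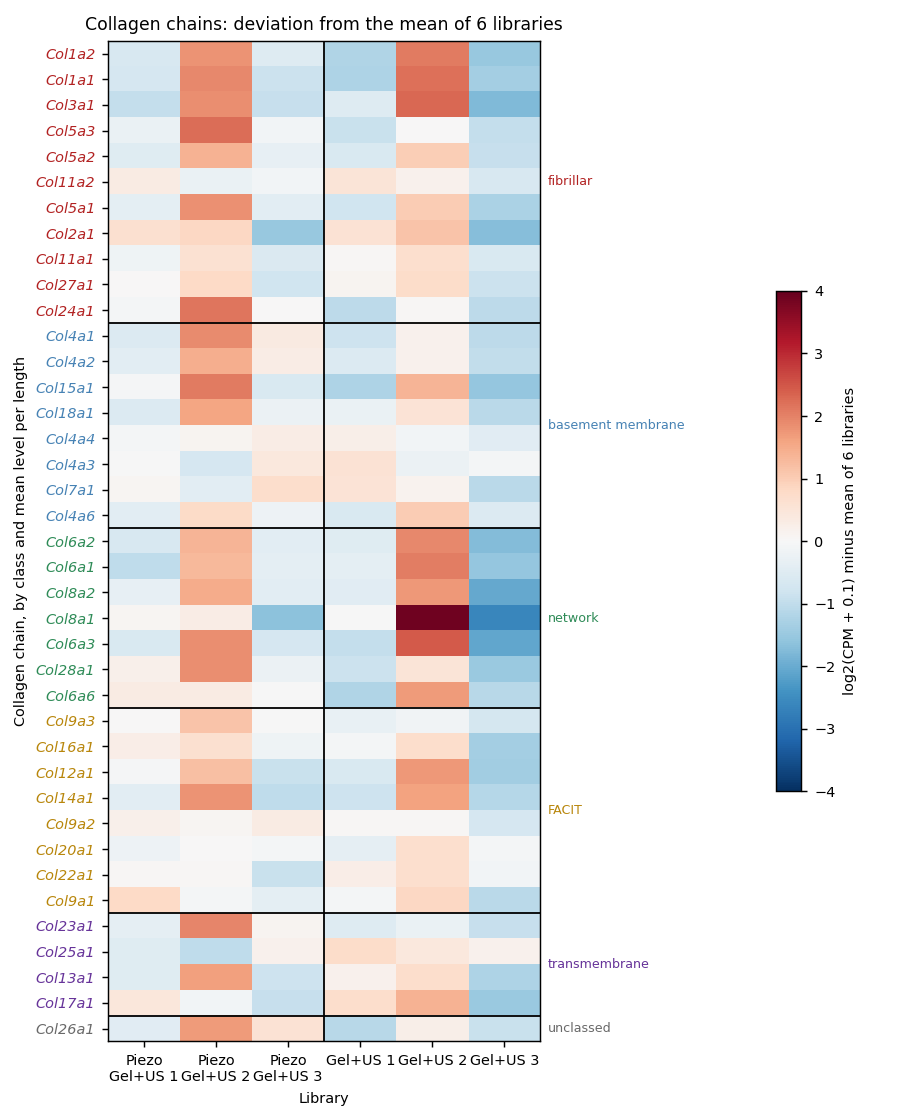
Deviation of each tested collagen chain from its mean over the 6 libraries (colour, log2(CPM + 0.1)), with chains in rows by class and libraries in columns. The libraries numbered 2 lie above the other 4 for 24 of 39 chains, and Gel+US replicate 3 is lowest for 31.

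Levels were compared per length, in CPM per kilobase of the gene length in the table. The 3 chains of types I and III had the highest means, which the libraries numbered 2 carried. The tissue that this RNA came from was not tested. Col1a2 averaged 143 CPM per kb over the 6 libraries, Col1a1 140.5 and Col3a1 139. Col4a1 followed with 53.5, Col6a2 with 47.7, Col6a1 with 42.7, Col4a2 with 37.2 and Col5a3 with 36.4. The order differed between libraries: in Piezo Gel+US replicate 3, Col4a1 had 52.8 CPM per kb, above Col1a1 with 44.4 and Col3a1 with 41.8. In all, 22 chains averaged over 10 CPM per kb and 33 over 1. Fibrillar chains made up 51.7 ± 6.74% of the collagen sum per length in Piezo Gel+US lesions, against 55.3 ± 7.38% in Gel+US lesions (SD, n = 3 each). Basement membrane chains made up 19.6 ± 3.99% of it in Piezo Gel+US lesions, against 14.4 ± 6.18% in Gel+US lesions. Network chains made up 12.8 ± 0.539% in Piezo Gel+US lesions, against 15.5 ± 5.37% in Gel+US lesions. The composition differed between the libraries numbered 2. In Piezo Gel+US replicate 2 basement membrane chains summed to 357 CPM per kb and network chains to 247, while in Gel+US replicate 2 they summed to 153 and 427.

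**Figure D2:**
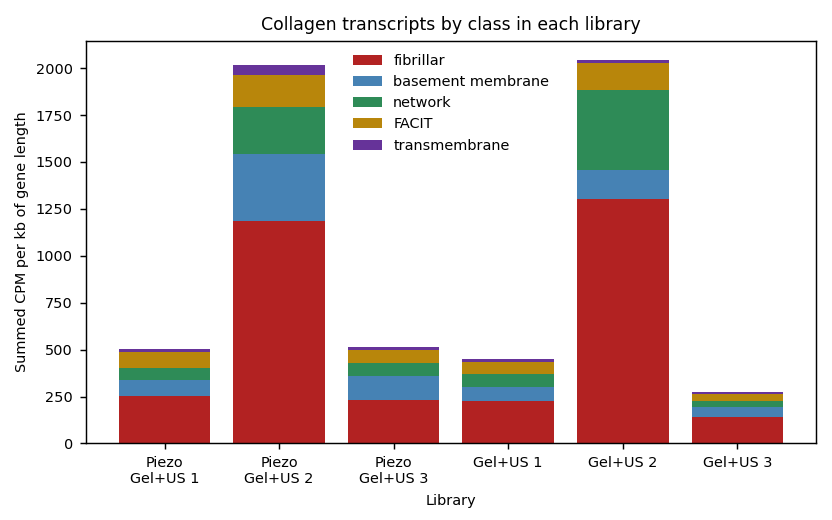
Summed level of the collagen classes in each library (stacked bars, CPM per kb of gene length; the chain of no class is too low to show). The libraries numbered 2 stand far above the others of their group, with more basement membrane collagen in Piezo Gel+US replicate 2 and more network collagen in Gel+US replicate 2.

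Between the groups no collagen chain passed the test. By edgeR's quasi-likelihood test with Benjamini-Hochberg adjustment 0 of 39 chains were called, against 0% of all genes tested, and the lowest adjusted p was 0.994. Col24a1, Col23a1 and Col25a1, 3 of 39 chains (7.69%), had an unadjusted p below 0.05, against 2.1% of all genes, and 0 chains were called by the other tools either. DESeq2, which also kept Col10a1 and Col6a5, had 7 of 41 chains at an unadjusted p below 0.05, against 2.81% of all genes. limma-voom with quality weights had 10 of 39 (25.6%), against 14.0% of all genes. Its library weights were 7.74, 0.42 and 0.44 for Gel+US replicates 1 to 3 and 1.39, 0.21 and 2.41 for those of Piezo Gel+US. The Gel+US side of that fit thus rests mostly on replicate 1. Of the 39 chains 21 had a fitted log2 fold change above 0 (53.8%, against 47.1% of all genes), and the median was 0.0079, against -0.021 over all genes. Without both libraries numbered 2, an alternative chosen after the values were seen, 31 of 38 chains lay above 0 with a median of 0.47, against 8458 of 16952 genes. In that fit 12 chains had an unadjusted p below 0.05 (31.6%, against 5.31% of all genes) and 0 were called. The replicate number was also used as a block, although the labels do not say what it marks. With the block, 28 of 39 lay above 0 with a median of 0.26. In this edgeR fit 11 had an unadjusted p below 0.05 (28.2%, against 5.78% of all genes) and 0 were called (lowest adjusted p = 0.855). Leaving out 1 library moved the median most for the libraries numbered 2, to -0.46 without Piezo Gel+US replicate 2 and to 1.17 without Gel+US replicate 2. By class, the log2 fold change lay above 0 for 5 of 11 fibrillar chains (median -0.073), 6 of 8 basement membrane chains (0.44), 2 of 7 network chains (-0.27), 5 of 8 FACITs (0.16) and 2 of 4 transmembrane chains (-0.14). Without the libraries numbered 2 these medians were 0.37, 0.38, 0.68, 0.51 and -0.19. The intervals were wide: in 9 of 39 chains the 95% interval of the log2 fold change stayed within 1.5 on either side of 0.

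**Figure D3:**
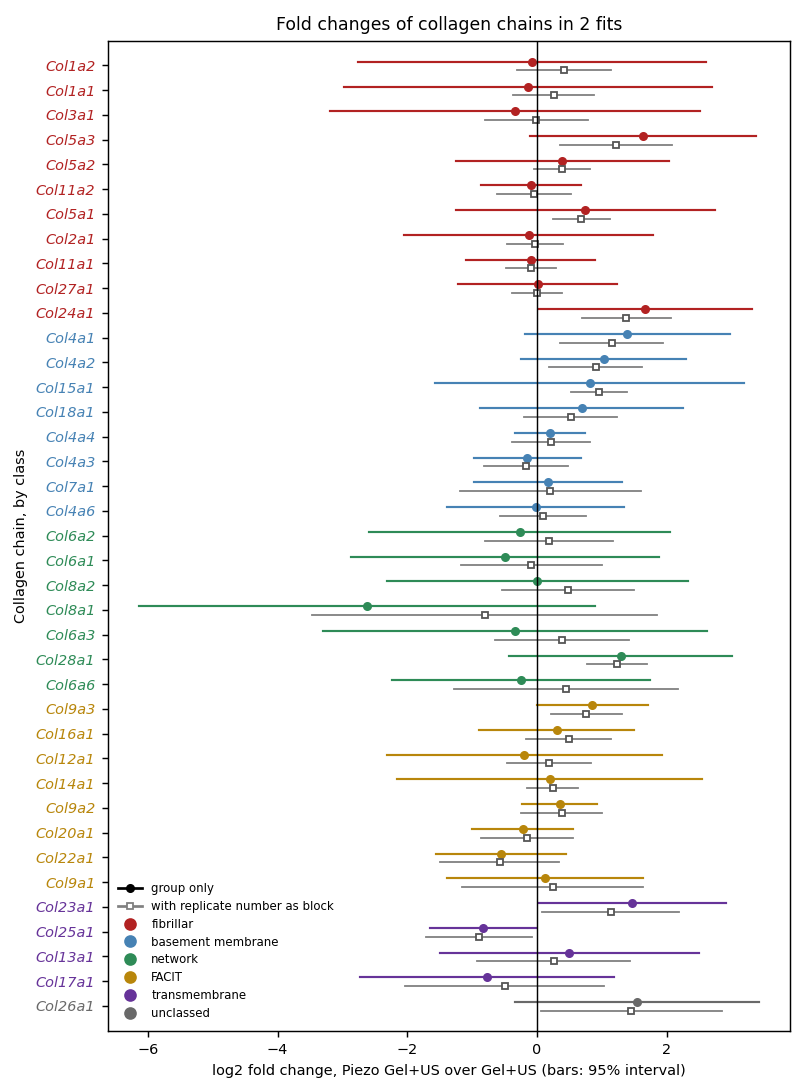
Fitted log2 fold change of each tested chain, Piezo Gel+US over Gel+US, with its 95% interval, from the fit with group only (filled circles) and with the replicate number as a block (open squares). Colours mark the classes. Intervals of Col1a1, Col1a2 and Col3a1 span over 5 units in the first fit and under 2 in the second.

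Type I collagen, the main fibre of scar, combines chains of Col1a1 and Col1a2. Col1a1 measured 295, 1786 and 259 CPM in Piezo Gel+US, against 201, 2194 and 183 CPM in Gel+US. Col1a2 measured 258, 1380.4 and 278 CPM in Piezo Gel+US, against 173, 1703 and 140.5 CPM in Gel+US. Replicate 2 was 6.45 times the mean of the other Piezo Gel+US libraries for Col1a1, and 11.4 times that of the other Gel+US libraries, so the groups overlapped widely. The log2 fold change of Col1a2 was -0.07 (95% interval -2.76 to 2.61) with group only, 0.42 (-0.30 to 1.15) with the block and 0.78 without the libraries numbered 2. That of Col1a1 was -0.14 with group only, 0.26 with the block and 0.53 without those libraries.

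Col3a1, the chain of type III collagen in thin reticular fibres, measured 196, 1364 and 199.8 CPM in Piezo Gel+US, against 265, 1848 and 110.1 CPM in Gel+US (log2 fold change -0.34, 95% interval -3.19 to 2.52). Its values in the 2 groups overlapped. Col5a2, its neighbour in the table across 30325 bases with no gene between, gives a chain of type V collagen, which lies inside type I fibres and sets their width. It measured 99.7, 359 and 109 CPM in Piezo Gel+US, against 89.5, 272 and 72.6 CPM in Gel+US (log2 fold change 0.39, 95% interval -1.26 to 2.03). Without the libraries numbered 2, Col3a1 was at 0.083 and Col5a2 at 0.37. Over the 6 libraries the range was 16.8-fold for Col3a1 and 4.94-fold for Col5a2.

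Other type V chains and the minor fibrillar chain Col24a1 had their highest level in Piezo Gel+US replicate 2. Col5a3, a type V chain known from Schwann cells of the rat, measured 130.2, 729 and 144 CPM in Piezo Gel+US, against 83.5, 159 and 80.5 CPM in Gel+US. Only Gel+US replicate 2 reached the level of the lower Piezo Gel+US libraries. Its log2 fold change was 1.64 (95% interval -0.11 to 3.38, unadjusted p = 0.0616), and 0.74 without the libraries numbered 2. Col24a1 measured 19.6, 91.6 and 21.1 CPM in Piezo Gel+US, against 10.1, 21.4 and 10.1 CPM in Gel+US (log2 fold change 1.67, 95% interval 0.03 to 3.31, unadjusted p = 0.0468, adjusted p = 0.994 by edgeR). As for Col5a3, Gel+US replicate 2 lay within the range of Piezo Gel+US. Col5a1, the chain common to most type V molecules, ran from 42.2 to 363 CPM, with a log2 fold change of 0.75 (95% interval -1.25 to 2.74). Col24a1 was at 1.01 and Col5a1 at 0.60 without the libraries numbered 2.

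The fibrillar chains of cartilage were present in the lesion as well. Col11a2, a type XI chain, ran from 97.1 to 216 CPM and was one of the steadier chains, with a log2 fold change of -0.10 (95% interval -0.87 to 0.68). It overlaps genes on the other strand that hold few counts beside it. Col2a1, the fibre of cartilage, ran from 15.6 to 113 CPM, was low in replicate 3 of both groups (18.0 CPM in Piezo Gel+US and 15.6 CPM in Gel+US), and had a log2 fold change of -0.13. Col11a1 ran from 28.9 to 70.1 CPM and Col27a1 from 21.1 to 66.0 CPM, with log2 fold changes of -0.09 and 0.01.

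Among basement membrane chains, Col4a1 and Col4a2, which form the type IV molecule found in nearly all basement membranes, had the highest levels. Col4a1 measured 181, 988 and 344 CPM in Piezo Gel+US, against 151, 298 and 127 CPM in Gel+US. Col4a2 measured 151, 562 and 251 CPM in Piezo Gel+US, against 140.3, 229.8 and 102 CPM in Gel+US. For each chain replicates 2 and 3 of Piezo Gel+US lay above every Gel+US library, while replicate 1 lay below Gel+US replicate 2. The log2 fold changes were 1.39 for Col4a1 (95% interval -0.19 to 2.97, unadjusted p = 0.0754) and 1.03 for Col4a2 (95% interval -0.24 to 2.30, unadjusted p = 0.0971). With the block they were 1.15 and 0.90, and without the libraries numbered 2 they were 0.92 and 0.73, with no call in either fit.

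The type XV chain Col15a1 and the type XVIII chain Col18a1 lie where basement membranes meet connective tissue, and the end piece of the Col18a1 protein is endostatin. Col15a1 measured 83.7, 364 and 56.6 CPM in Piezo Gel+US, against 36.9, 221 and 29.2 CPM in Gel+US. The groups overlapped only through Gel+US replicate 2, and the log2 fold change was 0.82 (95% interval -1.57 to 3.20), or 1.09 without the libraries numbered 2. With the block it was 0.95 (95% interval 0.52 to 1.38, unadjusted p = 0.00165, adjusted p = 0.855). Col18a1 ran from 35.5 to 221 CPM with a log2 fold change of 0.69, or 0.22 without those libraries.

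Chains of the type IV molecules of specialised membranes such as the kidney filter were low and steady. Col4a3 ran from 14.3 to 34.0 CPM and Col4a4 from 26.8 to 45.5 CPM, with no peak in the libraries numbered 2 and log2 fold changes of -0.15 and 0.20 (95% intervals -0.97 to 0.67 and -0.34 to 0.74). Col7a1, the anchoring fibril of skin, ran from 5.31 to 18.6 CPM, and Col4a6 from 4.06 to 12.9 CPM. Their log2 fold changes were 0.17 and -0.02.

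Type VI collagen, the beaded filament that surrounds cells in connective tissue and nerve, was highest in Gel+US replicate 2. Col6a1 measured 57.2, 282 and 87.7 CPM in Piezo Gel+US, against 87.3, 476 and 39.0 CPM in Gel+US. Col6a2 measured 77.7, 309 and 89.6 CPM in Piezo Gel+US, against 85.5, 452 and 36.3 CPM in Gel+US. Groups overlapped for both, with log2 fold changes of -0.50 (95% interval -2.87 to 1.88) and -0.27 (-2.59 to 2.06), and of 0.20 and 0.46 without the libraries numbered 2. Col6a3, the long chain of the same molecule, ran from 16.0 to 373 CPM. Col6a6, a later-found relative, ran from 1.15 to 9.33 CPM.

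Type VIII collagen, a lattice of vessel walls and of the cornea, showed the widest range of any chain tested. Col8a1 measured 14.8, 17.1 and 4.35 CPM in Piezo Gel+US, against 13.7, 206 and 2.21 CPM in Gel+US. Gel+US replicate 2 stood alone, and the other 5 libraries lay below 18 CPM. The log2 fold change was -2.62 (95% interval -6.14 to 0.90) and 0.27 without the libraries numbered 2. Col8a2, its partner, measured 54.7, 190.4 and 50.7 CPM in Piezo Gel+US, against 50.0, 229 and 16.3 CPM in Gel+US, with a log2 fold change of 0.005 (95% interval -2.31 to 2.32), or 0.68 without those libraries. Unlike Col8a1, it was high in replicate 2 of both groups.

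Col28a1, a relative of type VI collagen known from peripheral nerve of the mouse, measured 17.6, 56.4 and 13.0 CPM in Piezo Gel+US, against 8.37, 21.8 and 5.46 CPM in Gel+US. Each Piezo Gel+US library lay above the Gel+US library of its number, and only Gel+US replicate 2 overlapped the other group. The log2 fold change was 1.29 (95% interval -0.43 to 3.01, unadjusted p = 0.119) with group only. With the block it was 1.23 (95% interval 0.77 to 1.69, unadjusted p = 6.10e-04, adjusted p = 0.855), the lowest unadjusted p of any chain in that fit. It was 1.15 without the libraries numbered 2. Col10a1, the lattice of cartilage turning to bone, and Col6a5 did not reach the count filter. Col10a1 had 3, 0 and 6 counts in Piezo Gel+US, against 56, 6 and 8 counts in Gel+US, where a count of 0 allows up to 3, and Col6a5 had 3, 10 and 3 against 12, 28 and 8.

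Among FACITs, Col9a2 and Col9a3, which give chains of type IX collagen on cartilage fibres, had groups that did not overlap. Col9a3 measured 70.1, 153 and 68.4 CPM in Piezo Gel+US, against 55.8, 63.3 and 42.6 CPM in Gel+US. Its log2 fold change was 0.85 (95% interval -0.01 to 1.71, unadjusted p = 0.0513) and 0.49 without the libraries numbered 2. Col9a2 ran from 23.3 to 27.7 CPM in Piezo Gel+US and from 13.8 to 23.2 CPM in Gel+US, with a log2 fold change of 0.35 (95% interval -0.24 to 0.93), and its nearest libraries were 23.29 CPM in Piezo Gel+US and 23.16 CPM in Gel+US. These were the 2 of 39 chains whose Piezo Gel+US values all lay above the Gel+US values, against 4.08% of all genes. Col9a1, the third chain of that molecule, ran from 0.601 to 2.55 CPM, and its groups overlapped.

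Col12a1 and Col14a1, which coat type I fibres, followed the type I and III chains. Col12a1 measured 124, 295 and 69.1 CPM in Piezo Gel+US, against 84.0, 426 and 48.3 CPM in Gel+US (log2 fold change -0.19, 95% interval -2.32 to 1.93). Col16a1, a FACIT of many connective tissues, measured 138, 180.1 and 101 CPM in Piezo Gel+US, against 109, 186 and 44.6 CPM in Gel+US (log2 fold change 0.31, unadjusted p = 0.561). Both chains had overlapping groups, and without the libraries numbered 2 they were at 0.55 and 0.64. Col14a1 ran from 31.4 to 239.6 CPM and Col20a1 from 5.26 to 10.9 CPM, with log2 fold changes of 0.20 and -0.22. Col22a1, a chain of the muscle to tendon junction, measured 2.56, 2.57 and 1.29 CPM in Piezo Gel+US, against 3.06, 4.05 and 2.31 CPM in Gel+US (log2 fold change -0.55, 95% interval -1.55 to 0.45), or -0.48 without the libraries numbered 2.

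Of the transmembrane chains, Col23a1 was the most abundant. It measured 59.3, 289 and 81.3 CPM in Piezo Gel+US, against 52.6, 62.2 and 40.1 CPM in Gel+US (log2 fold change 1.47, 95% interval 0.03 to 2.91, unadjusted p = 0.0465, adjusted p = 0.994 by edgeR). Replicate 2 was 4.11 times the mean of the other Piezo Gel+US libraries, whereas Gel+US replicate 2 was 1.34 times the mean of the others in its group. Without the libraries numbered 2 the log2 fold change was 0.60. Leaving out Piezo Gel+US replicate 2 alone gave 0.44 for Col23a1, 0.54 for Col24a1, 0.34 for Col5a3, 0.44 for Col4a1 and 0.34 for Col4a2.

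Col25a1, made by neurons and needed in mice for motor axons to enter muscle, measured 10.9, 7.50 and 17.4 CPM in Piezo Gel+US, against 25.8, 20.4 and 17.4 CPM in Gel+US. It was the 1 chain tested whose Piezo Gel+US values all lay below the Gel+US values, against 2.73% of all genes, and the nearest libraries of the 2 groups differed by less than 0.1 CPM. The log2 fold change was -0.83 (95% interval -1.65 to -0.01, unadjusted p = 0.0473, adjusted p = 0.994 by edgeR), with -0.90 in the block fit and -0.61 without the libraries numbered 2. All 10 neuron markers had a log2 fold change below 0 (median -0.78), with 0 at an unadjusted p below 0.05 by edgeR. With the block their median was -0.63 and without the libraries numbered 2 it was -0.88, with 0 of 10 above 0 in each. Without Gel+US replicate 3 it was -0.011 with 4 of 10 above 0, and Col25a1 was at -0.96. The part of neurons in the Col25a1 values was not tested. Other marker lists also differed in direction. Of 9 Schwann cell markers 8 lay above 0 (median 1.56). Of these 9, 6 had an unadjusted p below 0.05 by edgeR, against 2.1% of all genes, and 0 were called. Their median was 0.98 without both libraries numbered 2 and 0.66 without Piezo Gel+US replicate 2 alone. Above 0 lay 8 of 12 fibroblast, 6 of 10 endothelial, 3 of 9 pericyte and smooth muscle and 2 of 9 macrophage and microglia markers. Col13a1, a chain of the neuromuscular junction, measured 1.33, 6.19 and 1.03 CPM in Piezo Gel+US, against 2.15, 3.17 and 0.752 CPM in Gel+US. Col17a1, of the anchoring plaques of skin, measured 1.23, 0.805 and 0.414 CPM in Piezo Gel+US, against 0.251 to 2.44 CPM in Gel+US. Col26a1, in no class, measured 0.374, 2.01 and 0.879 CPM in Piezo Gel+US, against 0.200, 0.666 and 0.251 CPM in Gel+US. Their log2 fold changes were 0.50, -0.77 and 1.55, with intervals that held 0. Without the libraries numbered 2, Col13a1 was at -0.29 and Col17a1 at -0.091, and Col26a1 did not reach the count filter.

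Some chains kept closer ratios to each other than their own levels, whether or not they share a molecule, and others did not. The ratio of Col1a1 to Col1a2 per length was 0.896, 1.01 and 0.731 in Piezo Gel+US, against 0.911, 1.01 and 1.02 in Gel+US. It varied 1.40-fold while Col1a1 itself ran from 183 to 2194 CPM. The ratio of Col4a1 to Col4a2, the couple with a common promoter stretch, was 1.18, 1.73 and 1.35 in Piezo Gel+US, against 1.06, 1.28 and 1.23 in Gel+US, and was highest in Piezo Gel+US replicate 2. The ratio of Col6a1 to Col6a2 varied 1.46-fold, from 0.673 to 0.982. That of Col6a3 to Col6a1 varied 2.16-fold, while Col6a3 ranged 23.2-fold. Among type V chains, Col5a1 to Col5a2 varied 1.74-fold and Col5a3 to Col5a1 2.61-fold. Col5a1 itself ranged 8.61-fold and Col5a3 9.06-fold. Col3a1 and Col1a1 belong to different molecules, and their ratio varied 2.19-fold while Col3a1 ranged 16.8-fold. Closer ratios were thus not particular to chains of the same molecule. Other couples were looser beside the range of their chains. The ratio of Col4a3 to Col4a4 varied 2.22-fold, about as much as Col4a3 itself (2.37-fold), and more than Col4a4 (1.70-fold), and these genes also lie head to head. The ratio of Col9a2 to Col9a3 varied 2.72-fold, more than Col9a2 itself (2.00-fold). The ratio of Col8a1 to Col8a2 varied 10.5-fold, with its peak in Gel+US replicate 2 and 0.143 to 0.457 elsewhere. These are values of 6 libraries with no test.

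**Figure D4:**
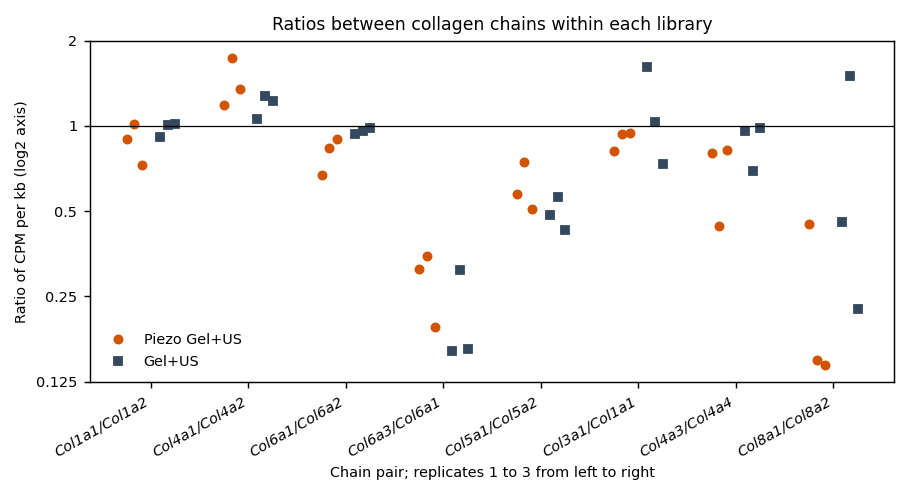
Ratios of level per length (log2 axis) between chains in each library, with Piezo Gel+US circles left of Gel+US squares and replicates 1 to 3 from left to right. Col1a1/Col1a2 stays between 0.731 and 1.02, while Col8a1/Col8a2 is 0.143 to 0.457 in 5 libraries and peaks in Gel+US replicate 2.

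Libraries of equal number were compared in couples because their deviations from the group means went together over all genes. That reason comes from these same data, and the labels do not say what a number marks. The couple numbered 2 joins the library of highest collagen sum in each group, so coupling takes out spread that these libraries share. The counts below and the p-values of the block fit hold only given this choice. In all 3 couples 13 of 39 chains (33.3%) were higher in Piezo Gel+US, against 14.3% of all genes, and 2 (5.13%) were lower, against 14.7%. The 13 were Col4a1, Col4a2, Col15a1, Col5a1, Col5a2, Col5a3, Col24a1, Col9a2, Col9a3, Col14a1, Col28a1, Col23a1 and Col26a1, and the 2 were Col22a1 and Col25a1. By class these 13 were 4 of 11 fibrillar, 3 of 8 basement membrane, 1 of 7 network, 3 of 8 FACIT and 1 of 4 transmembrane chains with Col26a1. Col28a1 had log2 differences of 1.06, 1.37 and 1.24 for numbers 1 to 3, and Col15a1 had 1.18, 0.72 and 0.95. By contrast Col1a1 had 0.56, -0.30 and 0.50, and Col3a1 had -0.43, -0.44 and 0.86. Chains do not vary independently of each other, so the count is given without a test.

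**Figure D5:**
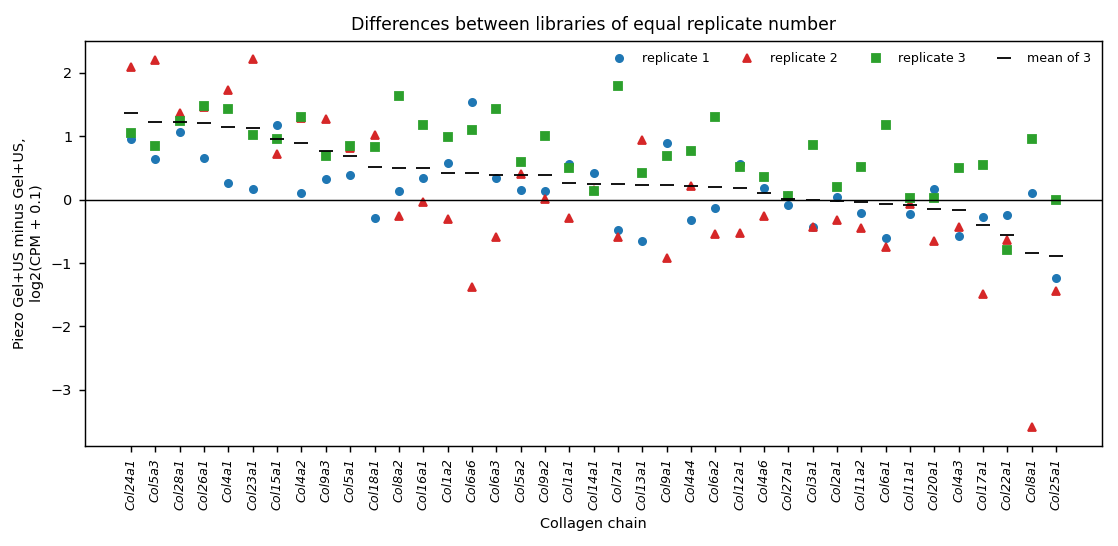
Difference in log2(CPM + 0.1) between the Piezo Gel+US and the Gel+US library of equal replicate number for each tested chain, ordered by the mean of the 3 (dash). For 13 chains all 3 points lie above 0, and for Col22a1 and Col25a1 all 3 lie below, that of Col25a1 in replicate 3 by -0.0048.

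Genes that fold, trim, bind and break down collagen were not called either, with 0 genes called in each of the 5 lists. Over all genes tested, the log2 fold change lay above 0 in 8044 of 17066 and below 0 in 9022. An unadjusted p below 0.05 was found for 2.1% of them. Of 21 folding and modification genes tested, 14 had a log2 fold change above 0 (median 0.12), and 1 had an unadjusted p below 0.05. That gene was P3h2, which hydroxylates prolines in basement membrane collagen. It measured 8.16, 28.0 and 18.1 CPM in Piezo Gel+US, against 6.31, 8.39 and 10.3 CPM in Gel+US. Its log2 fold change was 1.12 (95% interval 0.03 to 2.21, unadjusted p = 0.0462, adjusted p = 0.994 by edgeR). P4ha3, a prolyl hydroxylase chain, and Plod2, the hydroxylase that sets scar crosslinks, had log2 fold changes of -0.95 and -0.96. P3h2 was at 0.65, P4ha3 at -0.82 and Plod2 at -0.63 without the libraries numbered 2. Of 13 propeptide and crosslinking genes, 10 lay below 0 (median -0.27). The lowest p were those of Tll1, a propeptide protease (1.49), Adamts3 (-0.73) and Loxl1, a crosslinking oxidase (-1.86). Loxl1 measured 8.64, 26.9 and 6.10 CPM in Piezo Gel+US, against 11.5, 138 and 2.10 CPM in Gel+US, so that Gel+US replicate 2 stood apart as it did for Col8a1. Tll1 had 66.8 CPM in Piezo Gel+US replicate 2 and 8.17 to 12.4 CPM in the other 5 libraries. Leaving out the libraries numbered 2 gave 0.0049 for Tll1, -0.80 for Adamts3 and 0.13 for Loxl1.

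Of 13 fibril-binding genes, 8 lay below 0 (median -0.34), and the lowest p were those of the small proteoglycans Aspn (-1.47), Omd (-1.17) and Bgn (-1.48). Others of the list were Fmod at -1.30 and Dcn at 1.06. Bgn measured 82.1, 186 and 76.2 CPM in Piezo Gel+US, against 100.0, 808 and 54.3 CPM in Gel+US. Aspn was at -0.40, Omd at 0.10 and Bgn at 0.039 without the libraries numbered 2. Of 11 receptor and uptake genes, 6 lay above 0 (median 0.078), with Ddr1, a collagen receptor kinase, at 467, 392 and 403 CPM in Piezo Gel+US, against 370.0, 295 and 304 CPM in Gel+US (log2 fold change 0.38, 95% interval -0.08 to 0.84). Mrc2, an uptake receptor, had -0.81 and the fibroblast integrin chain Itga11 -2.18. Itga11 measured 39.99 CPM in Gel+US replicate 2 and 0.828 to 4.48 CPM in the others. Ddr1 was at 0.37, Mrc2 at -0.20 and Itga11 at 0.73 without the libraries numbered 2. Of 5 collagenases and gelatinases, 3 lay below 0 (median -0.17), with 1.01 for Mmp14, -1.75 for Mmp13 and -0.60 for Mmp9. Without the libraries numbered 2 these were 0.66, 0.58 and 1.04. The medians of the crosslinking, fibril-binding and collagenase lists were then 0.071, 0.47 and 0.69.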

How the data were processed

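RNA was measured in 6 libraries, 3 of Piezo Gel+US and 3 of Gel+US lesions, from about 5 mm3 of tissue each. Per the labels' protocols, TRIzol was used for extraction, oligo(dT) beads for enrichment of polyadenylated RNA, and dUTP to keep strand. The labels call the libraries biological replicates. The authors deposited raw counts per gene with gene lengths, which were used as deposited. The submitters' processing notes name, without roles, DESeq2 1.20.0, featureCounts 1.5.0-p3, HISAT2 2.0.5 and fastp 0.19.7. The genome build and whether counting used strand are not given in the sources used here. Gene identifiers of the table did not match the Norway rat GRCr8 reference, and what this does to the counts was not tested.

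Counts were fitted with edgeR 4.0.16 (TMM scaling, genes kept by filterByExpr with a minimum count of 10 and a minimum total of 15, robust quasi-likelihood F test, group only). P-values were Benjamini-Hochberg adjusted over 17066 genes, with calls at an adjusted p below 0.05. DESeq2 1.42.0 and limma 3.58.1 (R 4.3.3) were alternatives, tables were made with Python 3.11.15 and pandas 2.3.3, and the edgeR step was tested on simulated data. The simulated spread between libraries was smaller than that of these chains, so it does not show what the test could find among them. CPM uses TMM-scaled library sizes, and CPM per kb divides by the deposited gene length. Counting intervals and floors cover counting error only.

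Chains and gene lists were chosen with earlier results of these data known. The chains named in detail were the 3 of highest mean level per length in each class, the 4 of lowest p in each direction, and members of neighbouring couples. Of each pathway list the 3 genes of lowest p were named. Col28a1, and any other chain given with values for single libraries, was singled out after its values were seen. Libraries of equal number were taken as couples because the correlations of their deviations from the group means were 0.253, 0.296 and 0.251, against at most 0.198 for other couples. This comes from the data, since the labels do not say what a number marks. Alternatives were scaling, filter, tool, replicate block, leaving out each library and, chosen after the values were seen, leaving out both libraries numbered 2.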

Additional observations from a re-analysis of the deposited data

How the results depend on the processing

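Genes called and collagen chains called were 0 under all 13 alternatives, so the replicate block changed no call, and the block fit gave a median log2 fold change of 0.26 over the chains. Among 22 chains named by rule, 10 kept the sign of their log2 fold change under every alternative and 12 did not. The cause was not tested. Without both libraries numbered 2, chosen after the values were seen, the sign changed for Col12a1 (0.55), Col1a2 (0.78), Col1a1 (0.53), Col3a1 (0.083), Col6a2 (0.46), Col6a1 (0.20), Col8a1 (0.27) and Col13a1 (-0.29). With the replicate block it changed for Col12a1 (0.18), Col1a2 (0.42), Col1a1 (0.26) and Col6a2 (0.19). With limma-voom, whose weights rest the Gel+US side mostly on replicate 1, it changed for Col12a1 (0.048), Col1a2 (0.62), Col1a1 (0.41), Col6a2 (0.036) and Col13a1 (-0.73). Col8a2, at 0.005, took -0.0075 with DESeq2 size factors, -0.12 with library totals and -0.0046 with DESeq2. Leaving out each library in turn gave ranges of -0.092 to 0.86 for Col16a1, -0.96 to 1.29 for Col12a1, -0.46 to 2.33 for Col15a1, -1.34 to 2.01 for Col1a2, -1.65 to 2.01 for Col1a1, -1.92 to 1.63 for Col3a1, -1.21 to 1.37 for Col6a2, -1.48 to 1.16 for Col6a1, -0.91 to 1.56 for Col8a2, -0.77 to 0.96 for Col13a1, -3.21 to 0.59 for Col8a1 and -0.48 to 1.21 for Col5a2. The median over the chains ranged from -0.46 to 1.17. Chains at an unadjusted p below 0.05 numbered 0 with library totals and 12 without both libraries numbered 2. With 3 lesions a group, an exact permutation test of 1 value cannot go below 0.1.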

Other observations

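A further 12 rows of the table are described as collagen chains but carry other names, and were not counted as members. The row described as collagen alpha-5(IV) chain-like, a partner chain of Col4a3 and Col4a4 in basement membranes, held 507 to 981 counts per library. Rows described as like the chains of type I collagen held at most 157 counts in a library. A row described as the type XIX chain held 30 to 110 counts.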
